A study of Mus musculus with 8 samples.

Results

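The genes described here are 10 imprinted genes, of 15880 genes in the table, whose transcripts were measured in stromal cells of newborn mice. They were chosen by values measured in these same libraries, namely their low level in cells without either sorting marker, and all 10 were found in the table. Their level in those cells is therefore given as a description with no test. Whether differences among the other populations also entered the choice is not known.

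An imprinted gene is read mainly from the copy inherited from one parent, because the copies carry different DNA methylation from the egg and the sperm. Many imprinted genes act on growth before and around birth: those read from the father's copy tend to promote it and those read from the mother's copy tend to restrain it, and many are switched down as young animals mature. Several lie in clusters that share a control region, so that a protein-coding gene and a long noncoding RNA nearby are read from opposite parental copies. The reads were not assigned to parental copies here, and all animals were of 1 inbred strain.

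RNA-seq libraries were made from bone-associated stromal cells of C57BL/6 pups heterozygous for the *Nes-Gfp* transgene, on postnatal day 1. In this transgene regulatory elements of rat nestin drive GFP, so GFP marks cells in which those elements are active and not every cell that holds nestin. Cells lacking CD45 (on blood cells), CD31 (on endothelium) and Ter119 (on red cell precursors) were sorted by GFP and surface Pdgfrα into 4 populations, with 2 libraries for each and 8 in all, and each library came from a pool of 3 pups and 15000 to 80000 sorted cells. No population was treated, and all share genotype, strain and age. They are called double-positive (GFP+ Pdgfrα+), Pdgfrα-only (GFP- Pdgfrα+), GFP-only (GFP+ Pdgfrα-) and double-negative (GFP- Pdgfrα-), and the first 3 together marker-positive.

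Values are the authors' normalized signal, which is not logged: the reads of a gene plus 0.5, per 1e6 of an effective library size. Reads on genes summed to 3564158 and 3329432 in double-positive cells, 3869275 and 3221217 in Pdgfrα-only cells, 3644103 and 3427644 in GFP-only cells, and 4058258 and 5302762 in double-negative cells. A gene with 3 reads has a signal between 0.825 and 1.04, which is taken as the floor of a library; the floor covers counting error only, since amplified reads are not independent molecules. The sex of the pools follows the replicate number: *Xist*, the RNA of the inactive X chromosome, was at 2.9 to 11.3 in the replicate 1 libraries and at 868 to 1380 in the replicate 2 libraries, so sex and replicate cannot be told apart.

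All 10 genes had both double-negative libraries below all 6 others. On the deposited scale 9 had their highest mean in Pdgfrα-only cells and *Cdkn1c* in GFP-only cells. With quantile normalization *Peg3*, *Meg3* and *Grb10* were lower in Pdgfrα-only than in GFP-only cells (log2 difference −1.25, −0.45 and −0.55). Rescaled without mitochondrial transcripts, *Peg3* (−0.02) and *Grb10* (−0.18) were lower too, but the median of all genes also shifted, to −0.28. Relative to that median *Peg3* was at 0.26 and *Grb10* at 0.10, so both kept their sign. Of the marker-positive means, that of GFP-only cells was the lowest for 6 genes and that of double-positive cells for 4. The summed signal of the 10 genes was 15170 and 16940 in double-positive cells, 23720 and 24110 in Pdgfrα-only cells, 12750 and 13940 in GFP-only cells, and 544 and 814 in double-negative cells. Fewer cells that express a gene and less of its RNA per cell cannot be told apart in such bulk libraries.

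**Figure D1:**
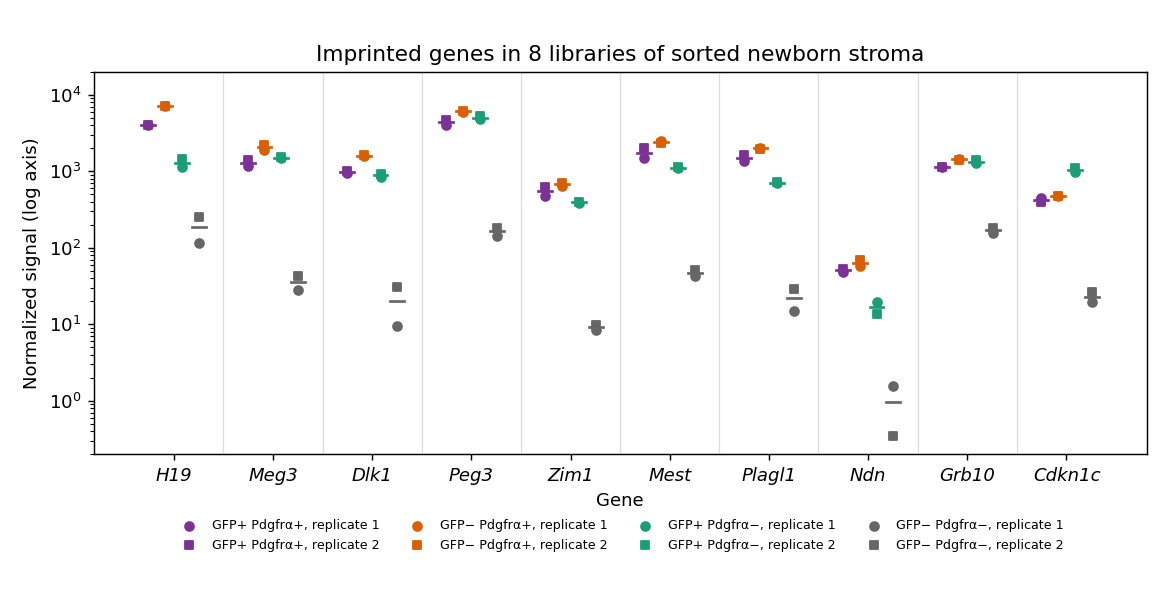
Normalized signal (log axis) of the 10 imprinted genes in each of the 8 libraries; circles are replicate 1, squares replicate 2 and short lines the means of 2 libraries, coloured by population. Double-negative libraries lie below all 6 others for every gene shown, and 9 of 10 genes have their highest mean in Pdgfrα-only cells on this scale, which for *Peg3*, *Meg3* and *Grb10* does not hold with quantile normalization.

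The noncoding RNAs come first. *H19* (ENSMUSG00000000031; NCBIM37 chromosome 7, 149761434 to 149764048, minus strand, 4 exon blocks) is a maternally expressed long noncoding RNA that restrains growth and is the host of miR-675. Its signal was 4010 and 4039 in double-positive cells, 7132 and 7161 in Pdgfrα-only cells, 1126 and 1441 in GFP-only cells, and 117 and 257 in double-negative cells. The libraries formed 4 separate steps with no overlap, and *H19* had the widest range of the 10 genes among marker-positive means, 5.57-fold. Per kb of exon it was the most abundant of the 10 genes in Pdgfrα-only cells, with a mean signal of 3013 per kb.

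*Meg3* (ENSMUSG00000021268; chromosome 12, 110779211 to 110809936, plus strand, 8 exon blocks) is the maternally expressed noncoding RNA of the *Dlk1* cluster. Its signal was 1181 and 1408 in double-positive cells, 1906 and 2221 in Pdgfrα-only cells, 1487 and 1519 in GFP-only cells, and 28.0 and 43.0 in double-negative cells. Both Pdgfrα-only libraries were the highest, and those of GFP-only cells lay above those of double-positive cells. *Rian*, the next noncoding RNA of the cluster and 32.2 kb away, kept a steady ratio to it: the signal of *Meg3* was 1.59 to 1.83 times that of *Rian* in all 8 libraries. *Meg3* shares 1228 of its 18089 exon bases with *Gm17639* on the opposite strand, a gene with a signal of 37.0 and 34.6 in GFP-only cells and at most 0.149 in the other 6 libraries; the strand used in counting is not stated, so a small part of either signal may belong to the other gene.

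*Dlk1* (ENSMUSG00000040856; chromosome 12, 110691033 to 110701546, plus strand, 6 exon blocks) is the paternally expressed gene of that cluster and encodes a membrane protein that holds back fat cell differentiation. Its signal was 941 and 1014 in double-positive cells, 1567 and 1619 in Pdgfrα-only cells, 843 and 933 in GFP-only cells, and 9.62 and 30.8 in double-negative cells. Pdgfrα-only cells stood above the other populations, while double-positive and GFP-only cells were separated by less than the gap within either. The double-negative libraries differed 3.2-fold from each other, the widest such gap among the 10 genes apart from *Ndn*.

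*Peg3* (ENSMUSG00000002265; chromosome 7, 6656603 to 6683132, minus strand, 10 exon blocks) is a paternally expressed zinc finger gene that promotes growth before birth. Its signal was 4083 and 4628 in double-positive cells, 5953 and 6155 in Pdgfrα-only cells, 4852 and 5251 in GFP-only cells, and 144 and 184 in double-negative cells. The 3 marker-positive populations did not overlap but lay close together, with the highest mean 1.39 times the lowest. *Zim1* (ENSMUSG00000002266; chromosome 7, 6628154 to 6649161, minus strand, 8 exon blocks), a maternally expressed zinc finger gene 7.44 kb away, was at 483 and 632 in double-positive cells, 653 and 698 in Pdgfrα-only cells, 390 and 397 in GFP-only cells, and 8.47 and 9.79 in double-negative cells. Relative to *Peg3*, *Zim1* was at 0.11 to 0.137 in the Pdgfrα+ libraries, 0.0804 and 0.0756 in GFP-only cells, and 0.0587 and 0.0533 in double-negative cells, so this ratio of neighbours was lower in both Pdgfrα- populations.

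*Mest* (ENSMUSG00000051855; chromosome 6, 30673547 to 30698457, plus strand, 18 exon blocks) is a paternally expressed gene for an enzyme-like protein of the hydrolase fold and is known as a marker of young mesoderm. Its signal was 1479 and 1992 in double-positive cells, 2457 and 2323 in Pdgfrα-only cells, 1092 and 1136 in GFP-only cells, and 43.5 and 51.8 in double-negative cells. The populations did not overlap, and the double-positive libraries differed from each other more than those of the other populations did. The gene shares 904 of 3937 exon bases with *Copg2* on the opposite strand, whose signal was between 26.5 and 44.6 in all 8 libraries, low beside that of *Mest* in the 6 marker-positive libraries but not in the double-negative ones.

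*Plagl1* (ENSMUSG00000019817; chromosome 10, 12810497 to 12851500, plus strand, 10 exon blocks) is a paternally expressed zinc finger transcription factor that can stop the cell cycle. Its signal was 1358 and 1649 in double-positive cells, 2041 and 1965 in Pdgfrα-only cells, 701 and 724 in GFP-only cells, and 15.1 and 28.9 in double-negative cells. Both Pdgfrα+ populations were well above GFP-only cells, and no libraries of different populations overlapped. *Ndn* (ENSMUSG00000033585; chromosome 7, 69493163 to 69494814, plus strand, 1 exon), a paternally expressed gene for the growth suppressor necdin, was the least abundant of the 10. Its signal was 48.5 and 53.3 in double-positive cells, 57.4 and 68.5 in Pdgfrα-only cells, 19.8 and 13.5 in GFP-only cells, and 1.58 and 0.354, from 5 reads and 1 read, in double-negative cells. It too was high in both Pdgfrα+ populations, with no overlap.

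*Grb10* (ENSMUSG00000020176; chromosome 11, 11830511 to 11938686, minus strand, 23 exon blocks) encodes an adaptor that binds the insulin and IGF1 receptors and dampens their signal, and outside the nervous system it is read mainly from the mother's copy. Its signal was 1135 in both double-positive libraries, 1469 and 1417 in Pdgfrα-only cells, 1269 and 1409 in GFP-only cells, and 156 and 182 in double-negative cells. It was the flattest of the 10 among marker-positive means, with a highest-to-lowest ratio of 1.27. Of the 10 it kept the largest percentage of its marker-positive mean in double-negative cells, 13%. *Cdkn1c* (ENSMUSG00000037664; chromosome 7, 150644255 to 150646955, minus strand, 4 exon blocks), the maternally expressed inhibitor of cyclin-dependent kinases p57, was at 452 and 394 in double-positive cells, 481 and 479 in Pdgfrα-only cells, 973 and 1113 in GFP-only cells, and 19.7 and 26.5 in double-negative cells. Here the order turned, with both GFP-only libraries above every other library.

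On a scale of signal per kb of exon, which allows levels of different genes to be compared, 9 of the 10 genes were among the most abundant transcripts of the marker-positive populations. In Pdgfrα-only cells, mean signals per kb were 3013 for *H19*, 607 for *Mest*, 455 for *Peg3*, 282 for *Dlk1*, 275 for *Plagl1*, 249 for *Cdkn1c*, 186 for *Zim1*, 158 for *Grb10*, 114 for *Meg3* and 38.1 for *Ndn*. The 9 genes other than *Ndn* had a higher signal per kb than at least 98.6% of all genes there, and *Ndn* than 94.9%. In double-negative cells *H19*, at 78.8 per kb, was above 97.1% of all genes, *Grb10* above 84.9%, *Peg3* above 78.1%, *Meg3* above 44.5% and *Ndn* above 27.5%.

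The first comparison asks how cells with and without transgene activity differ among Pdgfrα+ stroma. The mean of every one of the 10 genes was lower with GFP than without it, with a median log2 difference of −0.45 against 0.00 over all genes; with quantile normalization *Peg3* turned to 0.06. *Meg3* fell, with a log2 difference of −0.67 (standard error 0.18, adjusted p = 0.049, limma with Benjamini–Hochberg adjustment over all genes). That is 1 of 10 genes, where 5.35% of all genes were called (3.22% higher and 2.13% lower), so in this fit the count is near the background. *H19* (−0.83, adjusted p = 0.103), *Dlk1* (−0.70, 0.31), *Peg3* (−0.48, 0.0678), *Mest* (−0.48, 0.091), *Plagl1* (−0.42, 0.349), *Grb10* (−0.35, 0.127), *Ndn* (−0.30, 0.698), *Zim1* (−0.29, 0.332) and *Cdkn1c* (−0.19, 0.575) did not pass in limma.

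How many of these differences pass changed with the fit and with the libraries kept. With only the populations compared, 3 of 10 genes were called, with the replicate block 3, with DESeq2 2 and with voom 7. All were lower in double-positive cells, and voom called 6.66% of all genes. The counts of the other fits stand without that share, so nothing is read from them about the members. The *Meg3* call was lost without any single library of the marker-positive populations, with log2 differences of −0.55 and −0.80 without double-positive replicates 1 and 2, −0.78 and −0.56 without Pdgfrα-only replicates 1 and 2, and −0.67 without either GFP-only library; over all 21 alternatives its adjusted p ranged from 0.00147 to 0.318. The double-negative libraries enter this comparison only through the shared spread. Leaving out either of them cannot change a log2 difference, so it shows nothing about stability, but it can change which genes pass. The log2 difference of *Mest* was −0.69 without double-positive replicate 2. Quantile normalization, a smaller pseudocount, no mean-variance trend and edgeR gave 0 calls among the 10.

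The second comparison asks how Pdgfrα+ and Pdgfrα- cells differ within GFP+ stroma. *H19*, *Plagl1*, *Ndn*, *Mest* and *Zim1* were higher in double-positive cells and *Cdkn1c* was lower, 6 of 10 genes, where 24.2% of all genes were called (13.1% higher and 11.1% lower); a call also depends on abundance, which was not matched. The log2 difference was 1.66 for *H19* (standard error 0.26, adjusted p = 0.000755, limma) and −1.30 for *Cdkn1c* (standard error 0.15, adjusted p = 7.09e-05, limma), a ratio of means of 3.14 and 0.406. Both calls were made in all 21 alternatives. *Ndn* rose by 1.58 (standard error 0.33, adjusted p = 0.00406), *Plagl1* by 1.07 (standard error 0.22, adjusted p = 0.00403), *Mest* by 0.62 (standard error 0.15, adjusted p = 0.00898) and *Zim1* by 0.49 (standard error 0.15, adjusted p = 0.0307), all in limma. *Peg3* (−0.22, adjusted p = 0.292, limma), *Meg3* (−0.22, 0.416), *Grb10* (−0.24, 0.178) and *Dlk1* (0.14, 0.814) did not pass. The value of *Dlk1* turned to −0.17 with quantile normalization and with values rescaled without mitochondrial transcripts. That rescaling moved the median of all genes to −0.30, and relative to it *Dlk1* was at 0.13, with its sign kept.

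Some of these calls rest on single libraries or on the scale. *Mest* and *Zim1* were not called without a mean-variance trend or with quantile normalization, nor *Ndn* without a pseudocount; over the 21 alternatives the adjusted p ranged from 0.000293 to 0.342 for *Mest*, 0.00679 to 0.402 for *Zim1*, 3.08e-05 to 0.0706 for *Ndn* and 4.63e-09 to 0.0528 for *Plagl1*. With quantile normalization *Peg3* (−1.19), *Meg3* (−0.86) and *Grb10* (−0.75) were called lower. Without double-positive replicate 2, the log2 difference was 0.41 for *Mest*, 0.93 for *Plagl1* and 0.30 for *Zim1*, none of them called. Without GFP-only replicate 1, *Mest* (0.59), *Plagl1* (1.05) and *Zim1* (0.48) were not called, and without replicate 2 of that population *Mest* (0.65), *Ndn* (1.32) and *Zim1* (0.50) were not; *Zim1* also lost its call without either Pdgfrα-only library, at an unchanged 0.49. The read share of mitochondrial transcripts was 24.2% and 22.2% in the GFP-only libraries and 13% and 13.7% in the double-positive libraries. When values were rescaled without them, the median of all genes shifted to −0.30, *Mest* and *Zim1* were no longer called and *Peg3*, *Meg3* and *Grb10* were called lower; relative to that median, the log2 difference was 0.61 for *Mest*, 0.48 for *Zim1*, −0.23 for *Peg3*, −0.23 for *Meg3* and −0.25 for *Grb10*.

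The third comparison sets the populations with a single marker against each other, and it shares its libraries with the first and second. *H19*, *Ndn*, *Plagl1*, *Mest* and *Zim1* were higher in Pdgfrα-only than in GFP-only cells and *Cdkn1c* was lower, 6 of 10 genes, where 27.9% of all genes were called (14.3% higher and 13.5% lower). The log2 difference was 2.49 for *H19* (standard error 0.26, adjusted p = 2.84e-05), 1.87 for *Ndn* (0.33, 0.00107), 1.49 for *Plagl1* (0.22, 0.000343), 1.1 for *Mest* (0.15, 0.000159), 0.78 for *Zim1* (0.15, 0.00188) and −1.11 for *Cdkn1c* (0.15, 0.00018), in limma with the standard error before the adjusted p. Each of these 6 calls was made in all 21 alternatives, with a log2 difference of at least 1.38 for *H19* and 0.35 for *Mest*, both under quantile normalization. *Dlk1* (0.84, adjusted p = 0.0924, limma) and *Meg3* (0.45, 0.0783) did not pass, but both did without either double-negative library, at unchanged log2 differences, and with the replicate block (adjusted p = 0.0443 and 0.0228). The block gave 8 of 10 calls, where 28.5% of all genes were called, and voom 9, where 28.1% were, with *Peg3* besides. *Peg3* (0.26, adjusted p = 0.183, limma) and *Grb10* (0.11, 0.547) did not pass either. With quantile normalization *Peg3* turned to −1.25 (adjusted p = 1.23e-05, limma), *Grb10* to −0.55 (0.00222) and *Meg3* to −0.45 (0.0481), all 3 called lower in Pdgfrα-only cells. Rescaling without mitochondrial transcripts turned *Peg3* to −0.02 and *Grb10* to −0.18, but it moved the median of all genes to −0.28. Relative to that median *Peg3* was at 0.26 and *Grb10* at 0.10, so both kept their sign.

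**Figure D2:**
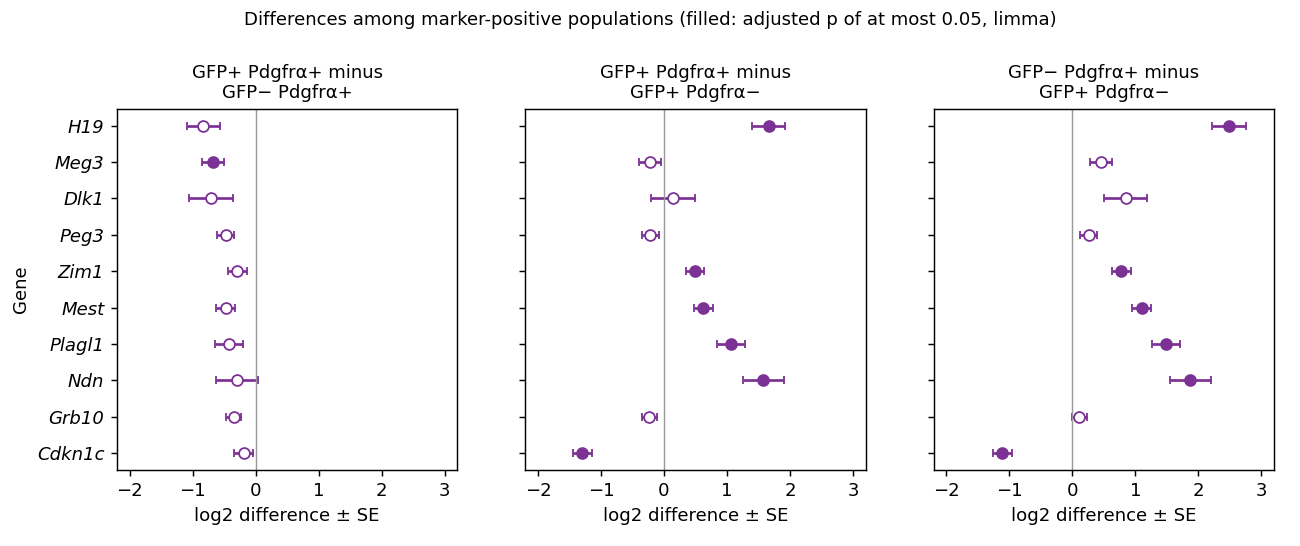
Log2 difference (log2 of signal plus 1) of each of the 10 genes in the 3 comparisons of marker-positive populations, with its standard error from limma (2 libraries per population); filled points passed an adjusted p of at most 0.05. *H19*, *Mest*, *Plagl1*, *Ndn* and *Zim1* were higher and *Cdkn1c* lower in both Pdgfrα+ populations than in GFP-only cells; the values of *Peg3*, *Grb10*, *Meg3* and *Dlk1* there change sign in at least 1 comparison under another normalization.

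Ratios of neighbours varied more for some pairs than the steady 1.59 to 1.83 of *Meg3* over *Rian*. Signal of *Dlk1* relative to *Meg3*, which lie 77.7 kb apart, was 0.72 to 0.822 in the Pdgfrα+ libraries, 0.567 and 0.614 in GFP-only cells, and 0.344 and 0.715 in double-negative cells. The signal of *Meg3* was 23.5 to 28.8 times that of the noncoding RNA *Mirg*, at the far end of the cluster, in the Pdgfrα+ libraries, 66.9 and 74.3 times in GFP-only cells, and 27.9 and 73.0 times in double-negative cells, there from 3 and 2 reads of *Mirg*. *Ndn* lies 27.1 kb from *Magel2*, another gene of the necdin family, and was at 1.15 to 1.39 times its signal in the Pdgfrα+ libraries and at 6.52 and 2.69 times in GFP-only cells, where *Magel2* had a signal of 3.04 and 5.02 from 12 and 19 reads; in double-negative cells the ratio was 1 in both libraries, from 5 reads and 1 read of each gene. These ratios are of library signals, and their differences were not tested.

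*Igf2* encodes the fetal growth factor that shares enhancers with *H19* from 72.6 kb away and is read from the father's copy. Its signal was 7272 and 7468 in double-positive cells, 13850 and 13000 in Pdgfrα-only cells, 4104 and 4091 in GFP-only cells, and 245 and 438 in double-negative cells. It showed the same order as *H19*, and fell in the first comparison (log2 difference −0.86, adjusted p = 0.031, limma). The signal of *H19* relative to *Igf2* was 0.515 to 0.551 in the Pdgfrα+ libraries and 0.48 and 0.586 in double-negative cells, and lower in GFP-only cells, at 0.274 and 0.352. *Igf2r*, the maternally expressed receptor that clears IGF2, was between 726 and 1023 in the marker-positive libraries and at 182 and 169 in double-negative cells.

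The low level in double-negative cells, for which the genes were chosen, was as follows. As a percentage of the mean of the marker-positive populations, the double-negative mean was 1.56% for *Plagl1*, 1.68% for *Zim1*, 1.75% for *Dlk1*, 2.19% for *Meg3*, 2.73% for *Mest*, 3.18% for *Peg3*, 3.56% for *Cdkn1c*, 4.5% for *H19* and 13% for *Grb10*. *Ndn* was at 2.22%, from 6 reads, and the median was 2.48% with it and 2.73% without it. In this contrast 64.5% of all genes were called (36.2% higher in the marker-positive mean and 28.3% lower), and nothing is read from the members' side of it. Of all genes, 1184 were below 5% and 4508 below 25%. The 10 genes were chosen for this level, so their own counts, 9 and 10, are a description with no test.

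The same percentage was taken for other lists, since the double-negative libraries also held more of other RNA, whose part in the low level (dilution) was not tested. The read share of mitochondrial transcripts was 36.9% and 39.1% in double-negative cells, and 12 of 14 listed erythroid genes were in the table, with a summed signal of 16270 and 24600 there and at most 231 in any other library. On reads left without mitochondrial transcripts the members' median was 2.66%, and without blood cell genes as well it was 2.73%; this removes the listed genes and not the rest of the RNA of those cells. The median was 151% for 15 housekeeping genes and 76.8% for all genes. It was 3.47% for 23 fibroblast and stromal matrix genes, with a range of 1.73% to 23.2%.

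The members' range of 1.56% to 13% lay within or just below that of the fibroblast and stromal matrix genes. Both lists were far below housekeeping genes. Within the members, *Grb10* kept 13% and 8 others under 5% with more than 3 reads in each double-negative library. These percentages are from means of 2 libraries. Replicate 2 was above replicate 1 in 9 of the 10 genes, and below it for *Ndn*. The ratio was 3.2 for *Dlk1*, 2.19 for *H19*, 1.92 for *Plagl1* and 1.54 for *Meg3*, with a median of 1.31 over the 10.

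**Figure D3:**
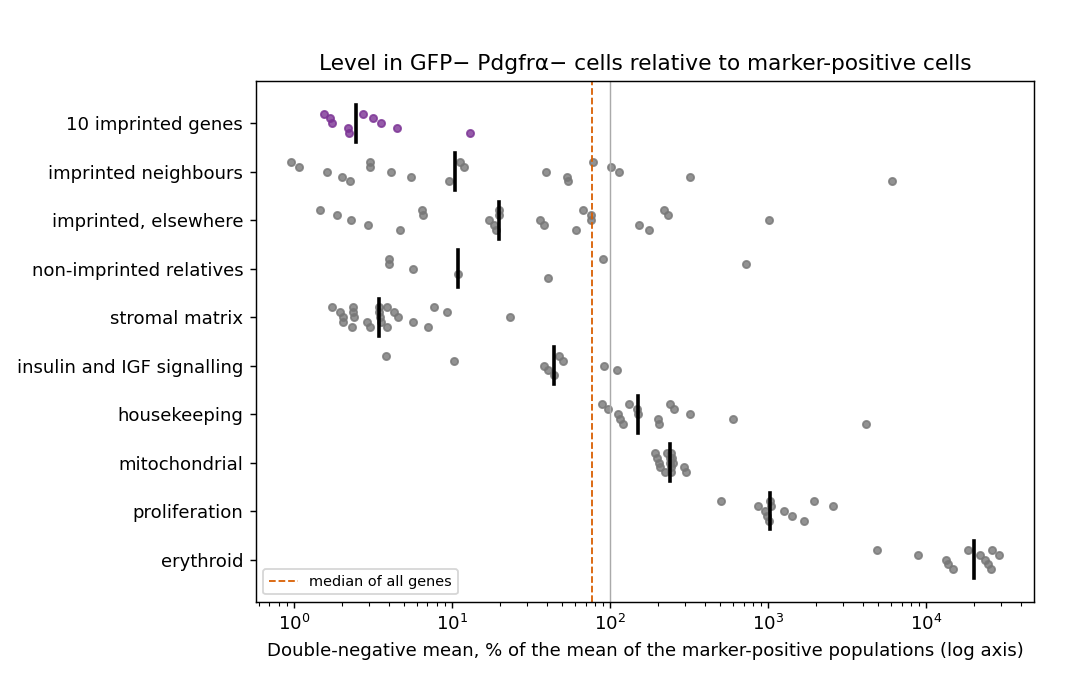
Double-negative mean as a percentage of the mean of the marker-positive populations (log axis), 1 point per gene, by list; black lines are list medians and the dashed line the median of all genes, 76.8%. The 10 imprinted genes (median 2.48%) and the fibroblast and stromal matrix genes (median 3.47%) lie far to the left of housekeeping (151%), mitochondrial (240%) and erythroid genes (20200%).

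Markers of other cell types also moved between the populations, and their part in the results above was not tested. In double-negative cells all 12 erythroid genes in the table were called higher, led by *Hbb-b1* at 4362 and 7619, and all 12 listed proliferation genes were, with a summed signal of 9094 and 10150 against at most 1102 elsewhere and *Mki67* at 5385 and 6467. Of 21 listed leucocyte genes 14 were in the table, with a summed signal of 142 and 138 in double-negative cells, at most 38.1 elsewhere, *Ptprc* at 11.3 and 6.72 there and *Lyz2* the most abundant. Of 7 megakaryocyte genes 4 were in the table, with a sum of at most 18.4 in any library and *Gp1ba* the most abundant. Endothelial genes, 10 of 11 in the table, summed to 64.9 and 181 in double-negative cells and 84.7 to 135 in the others, with *Vwf* the most abundant and *Pecam1* at 3.91 to 27.9. Cartilage genes, 11 of 12 in the table, summed to 727 and 1245 in double-negative cells, 2777 and 2146 in double-positive, 1629 and 3333 in Pdgfrα-only and 270 and 269 in GFP-only cells, with *Col11a1* the most abundant and *Col2a1* at 371 and 753 in double-negative cells. Gene by gene, 7 of the 11 were called higher in double-negative cells than in the marker-positive mean and 2 lower, with a median of 109%.

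GFP-only cells, in which *Cdkn1c* was high and *H19*, *Plagl1* and *Ndn* were low, carried other markers. All 14 listed skeletal muscle genes were in the table, with a summed signal of 2011 and 1823 there and at most 149 elsewhere, *Actc1* the most abundant, and *Pax7* at 296 and 336. The 12 Schwann cell and neural crest genes summed to 581 and 528 there and at most 224 elsewhere, with *Sox10* at 83.2 and 85.8 and *Ngfr* the most abundant over all libraries. The 10 pericyte and smooth muscle genes summed to 2460 and 3175 there and at most 602 elsewhere, led by *Rgs5* at 731 and 1035, with *Acta2* at 584 and 623. In double-positive cells the 10 osteoblast genes summed to 61880 and 45430, against at most 17360 elsewhere, with *Col1a1* the most abundant, *Runx2* at 500 and 275 and *Ibsp* at 2466 and 1774. The 6 tendon genes summed to 3854 and 3906 in Pdgfrα-only cells and at most 665 elsewhere, with *Thbs4* the most abundant and *Tnmd* at 407 and 360. Fibroblast and stromal matrix genes, led by *Col1a1*, summed to 143000 and 116700 in double-positive cells and 92860 and 88230 in Pdgfrα-only cells. Their sums were 16460 and 16190 in GFP-only cells and 2126 and 2905 in double-negative cells.

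Other imprinted genes were listed beside the members. Of 31 listed imprinted neighbours of the 10 genes, 20 were in the table. In the first comparison 2 were called, *Igf2* and *Rian* (log2 difference −0.68, adjusted p = 0.0241, limma), both lower in double-positive cells. In the second 5 were called higher and 3 lower (40% of the 20, where 24.2% of all genes were called), and in the third 8 and 2 (50%, against 27.9%). *Klf14*, a zinc finger gene near *Mest*, was at 69.5 and 82.4 in double-positive cells, 103 and 112 in Pdgfrα-only cells and 9.35 and 16.1 in GFP-only cells, and at the floor in double-negative cells. It had the order of *H19*, with log2 differences of 2.53 (adjusted p = 5.09e-05) and 3.03 (adjusted p = 9.53e-06) over GFP-only cells in limma.

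*Magel2*, *Mirg*, *Igf2* and *Cd81*, which encodes a tetraspanin, were the other neighbours called higher in both Pdgfrα+ populations than in GFP-only cells; with quantile normalization *Igf2* turned from 0.85 to −0.04 in the second comparison, and no other call of these neighbours changed sign under the scalings tried. *Rian* (log2 difference 0.54), *Rtl1* (0.95) and *Atp10a* were called higher in the third comparison and not in the second. *Peg12* (log2 difference −1.48 and −1.71) and *Ddc* (−1.82 and −2.45), which encodes the enzyme that makes dopamine, were lower in both Pdgfrα+ populations. For *Ddc* this rests on 17 and 3 reads in double-positive and 5 and 3 in Pdgfrα-only cells, at or near the floor. *Usp29*, a neighbour of *Peg3*, was lower in double-positive cells (−2.14), there from 7 and 5 reads. Against double-negative cells 75% were called, where 64.5% of all genes were: 13 of the 20 higher in the marker-positive mean, *Osbpl5* and *Mkrn3* among them, and 2 lower, *Nap1l4* and *Tspan32*, a gene at 43.2 and 54.4 in double-negative cells and at most 1.29 elsewhere. The median percentage in double-negative cells was 10.4%, with a range of 0.961% to 6130%.

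Of 27 listed imprinted genes elsewhere in the genome, 23 were in the table, with 0 called by limma in the first comparison, 0 higher and 6 lower in the second, and 1 higher and 5 lower in the third. That is 26.1% in the second and in the third, near the 24.2% and 27.9% of all genes. *Peg10*, a retrotransposon-derived gene, was at 236 and 324 in double-positive cells, 242 and 290 in Pdgfrα-only cells, 485 and 490 in GFP-only cells and 7.32 and 12.8 in double-negative cells, so that like *Cdkn1c* it was highest in GFP-only cells. *Ppp1r9a*, *Ampd3* and *Calcr* were also lower in both Pdgfrα+ populations, *Igf2r* and *Inpp5f* in double-positive cells and *Slc38a4* in Pdgfrα-only cells, while *Sgce*, the sarcoglycan gene beside *Peg10*, was higher in Pdgfrα-only cells (log2 difference 0.57). *Calcr*, the calcitonin receptor, was at 85.8 and 78.3 in GFP-only cells and at most 2.35 elsewhere. Against double-negative cells 73.9% were called, where 64.5% of all genes were: 14 of 23 higher, with *Airn*, *Asb4*, *Nespas*, *Nnat*, *Sfmbt2*, *H13* and *Impact* among them, and 3 lower (*Ampd3*, *Commd1* and *Zrsr1*). The median was 19.7%; *Gnas*, the stimulatory G protein subunit and the most abundant of them, kept 17.1%.

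Relatives of the members that are not imprinted allow a comparison within gene families, and 7 of 9 were in the table. *Cdkn1b*, the p27 inhibitor related to *Cdkn1c*, was at 65 and 82.9 in double-positive cells, 73.0 and 75.3 in Pdgfrα-only cells, 78.8 and 65.7 in GFP-only cells and 63.1 and 69.5 in double-negative cells. Its populations overlapped except for Pdgfrα-only and double-negative cells, whose values lay close together. The signal of *Cdkn1c* was 4.75 to 6.95 times that of *Cdkn1b* in the Pdgfrα+ libraries, 12.3 and 16.9 times in GFP-only cells and 0.312 and 0.382 times in double-negative cells. *Cdkn1a*, the p21 inhibitor, was called higher in marker-positive cells and kept 10.9% in double-negative cells.

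*Plag1*, the growth-promoting relative of *Plagl1*, was higher in double-positive (log2 difference 1.70) and Pdgfrα-only cells (1.95) than in GFP-only cells, and kept 40.7% in double-negative cells. *Plagl2*, in contrast, was at 361 and 362 in double-negative cells and at most 65.9 in any other library. *Maged1* and *Maged2*, of the same wider family as *Ndn*, kept 5.67% and 3.99%, and *Grb14*, the relative of *Grb10*, was at the floor in double-negative cells and higher in double-positive than in GFP-only cells (1.44). Over the 7 genes, 0 were called by limma in the first comparison (5.35% of all genes), 3 higher and 1 lower in the second (57.1%, against 24.2%), 2 and 1 in the third (42.9%, against 27.9%), and 5 and 1 against double-negative cells (85.7%, against 64.5%).

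*Grb10* acts on insulin and IGF1 receptor signalling, for which all 9 listed genes were in the table. None passed in the first comparison in limma; in the second and in the third 3 were higher, *Shc1*, *Pik3r1* and *Akt1*, and 1 lower, the receptor *Igf1r*, which is 44.4% of the list in each, against 24.2% and 27.9% of all genes. Their median in double-negative cells was 44.4%. *Irs1*, the docking protein of both receptors, was the lowest of them there, at 3.81%, with 12.2 and 20.9 in double-negative cells and 385 to 485 in the marker-positive libraries. *Insr* and *Igf1r*, the receptors themselves, kept 38.1% and 47.3%, and *Nedd4*, a ubiquitin ligase that binds GRB10 and the most abundant gene of the list, kept 40.4%.

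By Pearson correlation over the 8 libraries with the mean profile of the 10 genes, the most similar of 9008 genes with a mean signal of at least 10 were *Nfib*, *Epb4.1l3*, *Itm2a*, *Dst*, *Ahnak*, *6230409E13Rik*, *Parva* and *Gas7*, with r from 0.9992 to 0.9985. The libraries come in 4 pairs and the step to double-negative cells dominates, so such r are a description only. *Nfib*, a nuclear factor I transcription factor, was at 540 and 663 in double-positive cells, 753 and 767 in Pdgfrα-only cells, 489 and 477 in GFP-only cells and 12.5 and 19.2 in double-negative cells. *Itm2a*, which encodes a membrane protein, was at 706 and 919, 1038 and 1134, 697 and 705, and 13.6 and 18.8 in the same order. Both repeat the order of populations seen for most members. Of the members, *Cdkn1c* (0.938), *H19* (0.943) and *Ndn* (0.953) were the least like their mean, and the other 7 had r of at least 0.991. That mean includes the member itself, which raises these r. Of the listed genes *Vim* (10), from the list of fibroblast and stromal matrix genes, ranked highest. The imprinted genes *Sgce* (24), *Rian* (36) and *Rtl1* (59) followed. Others of the same lists ranked far lower, such as the matrix gene *Dcn* (3033) and the imprinted genes *Nap1l4* (8155), *Ampd3* (8250) and *Tspan32* (8742).

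Sequence near the members was read to show features tied to imprinting. The control region upstream of *H19* is known to bind the insulator protein CTCF on the mother's copy. The letters GGNGGCAG, part of a known CTCF motif and chosen after the sequence had been read, were searched on both strands and matched 6 times within 5000 bases upstream of its annotated start, all outside annotated genes. Of 26225 genes 79.3% held a match in a window of that size, so a single match is common. At least as many matches as for *H19* were held by 986 genes (3.76%). As the letters were chosen after reading the sequence, nothing is read from that count. The sequences are from NCBIM37, written along the minus strand, at chr7:149767931-149767954, chr7:149767806-149767829, chr7:149767687-149767710, chr7:149766661-149766684, chr7:149766206-149766229 and chr7:149765338-149765361, with the match in capitals; the last match is on the other strand. A match is a description and not a shown binding site.
H19 upstream 1: tgccgcgtGGTGGCAGcaaaatcg
H19 upstream 2: gccactagGGGGGCAGgacacatg
H19 upstream 3: tgccgcacGGCGGCAGtgaagtct
H19 upstream 4: taccgcgcGGTGGCAGcatactcc
H19 upstream 5: tgccgcgtGGTGGCAGtacaatac
H19 upstream 6: gagaccaaCTGCCACCacaccagt

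The first intron of *Peg3* is known for repeated sites of the transcription factor YY1. The letters GCCATNTT, searched on both strands, matched 12 times within 4000 bases after the annotated start of *Peg3*, all on the strand of the gene and in its intron. Of all 26225 genes 52.1% held at least 1 match in a window of that size and 17 held at least as many as *Peg3*. The 4 nearest to the start lie on the minus strand of NCBIM37 at chr7:6682292-6682315, chr7:6682186-6682209, chr7:6681583-6681606 and chr7:6681442-6681465, 825, 931, 1534 and 1675 bases from it, with the match in capitals.
Peg3 intron 1: cagttggcGCCATCTTggagggtg
Peg3 intron 2: cgcttggcGCCATCTTgaaatgac
Peg3 intron 3: atcctggcGCCATCTTtcctggcc
Peg3 intron 4: accctgacGCCATCTTtgctggct

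Promoters of 8 of the 10 members are in the RefSeq table, with 12 entries of 300 bases each (build GRCm38.p6); *H19* and *Cdkn1c* are not. They held 1 to 45 CpG, the dinucleotide that carries methylation, with a median of 13 against 7 over 32851 promoters. The letters GGGCGG, known as a GC box, matched on either strand in 7 of the 12 entries, which belong to 5 of the 8 members, against 35.7% of all promoters; 3 of the 7 are entries of *Mest*, a pair of which overlap. TATAAA matched in 1 of the 12, against 13.6%. That 1 belongs to *Meg3* and is shown with a promoter of *Plagl1*, a member with 26 CpG, as examples of both kinds. Capitals mark TATAAA, matched on both strands with overlap, in *Meg3* (plus strand, chr12:109540746-109541045), and GGGCGG read on the other strand in *Plagl1* (plus strand, chr10:13090582-13090881).
Meg3 promoter: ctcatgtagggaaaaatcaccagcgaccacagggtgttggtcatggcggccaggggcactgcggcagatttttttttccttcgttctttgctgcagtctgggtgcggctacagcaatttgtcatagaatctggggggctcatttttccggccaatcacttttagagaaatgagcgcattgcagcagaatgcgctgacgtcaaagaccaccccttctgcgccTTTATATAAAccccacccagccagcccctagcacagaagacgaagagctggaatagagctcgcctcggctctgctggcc
Plagl1 promoter: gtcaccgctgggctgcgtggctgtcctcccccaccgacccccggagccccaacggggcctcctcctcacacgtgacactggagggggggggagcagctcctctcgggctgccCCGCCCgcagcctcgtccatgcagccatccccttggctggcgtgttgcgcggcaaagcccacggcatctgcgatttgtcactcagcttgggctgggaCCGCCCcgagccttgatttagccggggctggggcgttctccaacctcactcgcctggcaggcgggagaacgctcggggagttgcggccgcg

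*H19* is the host of miR-675, whose mature forms are shown because its host is the most abundant member per kb in the Pdgfrα+ populations; small RNAs were not measured in these libraries. The sequences are from RefSeq, with the seed (bases 2 to 8) in capitals, and the arms have different seeds.
mmu-miR-675-5p: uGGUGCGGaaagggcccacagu
mmu-miR-675-3p: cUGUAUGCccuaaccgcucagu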

How the data were processed

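The authors removed adaptors with cutadapt, quantified reads with RSEM on NCBIM37 and normalized them; the deposited values are normalized signal, from which whole reads were recovered in 100% of cases (within 0.01 reads). Of 15880 identifiers 15849 matched the annotation, and for a symbol with several identifiers the one with the highest mean was used. Log2(signal + 1) was fitted in limma 3.58.1 (R 4.3.3; lmFit, eBayes with trend) over all 8 libraries, with 1 coefficient per population, 4 residual degrees of freedom and Benjamini–Hochberg adjustment over 15880 genes; calls are at an adjusted p of at most 0.05. An exact two-sided permutation of 2 against 2 libraries cannot give a p below 0.333. Each set of samples came from pooled littermates; deviations of same-numbered libraries correlated at 0.004 to 0.081, *Xist* was at least 119-fold higher in replicate 2, and the numbers were read as pairing (replicate block). The alternatives, 21 in all, included edgeR 4.0.16 and DESeq2 1.42.0. Lists hold the members, other imprinted genes, relatives, signalling genes and cell markers (19 lists); named genes are all members and relatives, imprinted genes called or among the 12 most abundant (*Ube3a*, of these, was called in no comparison), and the 8 most correlated genes; of each other list the plan was up to 4 abundant genes and the first 2, of which the text names only a part. Members and lists were chosen with earlier results of these data known. Tables and figures used numpy 2.4.6, pandas 2.3.3 and matplotlib 3.10.9.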

Additional observations from a re-analysis of the deposited data

How the results depend on the processing

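Over 30 log2 differences (10 genes in 3 comparisons), 342 of 390 values under other settings kept their side of the threshold. Of the rest, 14 lost the call, 31 gained it and 3 were called with the sign reversed. The sign changed in 11 of the 390, and 8 of these, called in neither fit, are among the 342. Some sign changes came from rescaling without mitochondrial transcripts, or without these and blood cell genes. They were *Dlk1* in the second comparison and *Peg3* and *Grb10* in the third, and all kept their sign relative to the median of all genes. Leaving out a library changed no sign, which a library outside the populations compared could not do. Quantile normalization reversed 3 genes between Pdgfrα-only and GFP-only cells, *Peg3* to −1.25, *Meg3* to −0.45 and *Grb10* to −0.55; the cause was not tested.

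Between the Pdgfrα+ populations 849 genes were called, 532 without the mean-variance trend and 514 without a pseudocount. Of the 10 genes, 1 was called: 3 with only the populations compared, 3 with the replicate block, 2 with median centring, 2 rescaled without mitochondrial transcripts, 7 with voom, 2 with DESeq2, and 0 with no trend, a pseudocount of 0.1, none, quantile normalization or edgeR. The cause was not tested. Most of these counts stand without the share of all genes under the same setting, so nothing is read from them about the members.

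The leave-one-out range of called genes was 246 to 1083 between the Pdgfrα+ populations, 2158 to 4056 between the GFP+ populations, 2757 to 4642 between Pdgfrα-only and GFP-only cells and 8604 to 10404 against double-negative cells. Of the 10 genes it was 0 to 5, 3 to 6 and 6 to 8 in the first 3. A population left with 1 library is assumed to vary like the others.

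With the replicate block (paired by pool), 924, 3925, 4530 and 10296 genes were called, and 3, 6 and 8 of the 10 genes.

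The members' median log2 difference of 5.03 against double-negative cells was 5.27 with a pseudocount of 0.1, 5.32 with none, 4.57 with median centring, 5.25 with voom, 5.25 with edgeR and 5.27 with DESeq2, and 4.90 to 5.18 leaving out a library; its cause was not tested. Median centring moved the median of all genes from 0.25 to −0.22.

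The share of called genes that were higher moved with scaling. Without mitochondrial transcripts it was 30.8% instead of 54.1% between the GFP+ populations and 31.7% instead of 51.4% between Pdgfrα-only and GFP-only cells, with the median of all genes at −0.30 and −0.28. Against double-negative cells it was 45.2% with quantile normalization and 39.9% with median centring instead of 56.2%, and between the Pdgfrα+ populations 49.3% with voom instead of 60.2%.

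With 2 libraries per population, precision rests on the spread shared between genes. At 1 to 5 reads, as for *Ndn* in double-negative cells, the level is not well determined.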
